A study of Gallus gallus with 4 samples.

Results

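Chromosome 2 is one of the macrochromosomes of the chicken, the few large chromosomes that sit beside many small ones in a bird karyotype. The regions described here were all condensin peaks that the deposited lists place on it, chosen by chromosome name alone. They numbered 515 of 6474 peaks in the SMC2 list and 280 of 4369 peaks in the CAP-H list, or 795 of 10843 in both. Peaks were mapped by ChAP-seq, in which DNA crosslinked to a tagged protein is recovered on streptavidin and sequenced, in DT40 cells, which derive from a chicken lymphoma of B cells. The SMC2 pull-down came from SMC2 knockout cells rescued by an SBP-tagged SMC2 transgene (SBP is a streptavidin-binding peptide), and the CAP-H pull-down came from CAP-H knockout cells rescued by SBP-tagged CAP-H. Both cell populations were kept in 2 ng/ml doxycycline, which shut off the untagged copy of the protein, were arrested in mitosis with 500 ng/ml nocodazole, a drug that takes apart spindle microtubules, and were fixed in 1% formaldehyde. Each subunit had 1 pull-down library with a peak list and 1 input library, which was not analysed here.

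Condensin is a ring-shaped complex that folds chromatin into compact mitotic chromosomes. SMC2 is one of its ATPase subunits and belongs to both vertebrate forms, condensin I and condensin II, so a pull-down of SMC2 can recover either form. CAP-H is the kleisin subunit that closes the ring of condensin I alone. A position listed for both proteins is called shared below when the peaks overlapped by at least 1 bp, and unshared otherwise.

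With no replicates there is no replicate check on any difference, and no test was made. Intervals are at 95% and cover counting error only. Neighbouring peaks of 1 library are not independent, so intervals that treat them as such are too narrow. The sequencing depth is unknown, since the lists hold no read counts. All positions are in galGal4 and count from 1. Peaks are named by position only, as no genome or annotation of that build was used here. Chromosome 2 was taken to end at 148785088, where its last listed peak ends, and the others likewise. Chromosomes 1, 3, 4 and 5 served for comparison and are called the other macrochromosomes below. Chromosome Z, which is also large, was not used. How many copies of chromosome 2 these cells carry was not measured here. Densities, scores and widths are given as listed, without correction for copy number. Its part in any difference between chromosome 2 and the other macrochromosomes was not tested.

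The first question was whether chromosome 2 carried more or fewer condensin peaks than the other macrochromosomes. Its SMC2 peaks were denser, at 3.46 per Mb (95% exact Poisson interval 3.17 to 3.77), against 2.30 per Mb (2.16 to 2.44) on chromosomes 1, 3, 4 and 5 together. The ratio of these densities was 1.5 (exact conditional interval 1.35 to 1.67). The higher density was not particular to chromosome 2, since chromosome 5 alone had 3.59 per Mb (3.13 to 4.11), while chromosomes 4, 1 and 3 had 2.68, 2.14 and 1.58. CAP-H peaks of chromosome 2 stood at 1.88 per Mb (1.67 to 2.12), against 1.93 per Mb (1.81 to 2.07), a ratio of 0.973 (0.848 to 1.11). SMC2 peaks covered 817 kb, or 0.549% of chromosome 2, against 0.308% of the other macrochromosomes. CAP-H peaks covered 561 kb, or 0.377%, against 0.331%. Merged across the lists, the peaks of chromosome 2 formed 701 separate sites, which covered 0.817% of its length.

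The higher SMC2 density was found in peaks without a CAP-H partner. Unshared SMC2 peaks had a density of 2.85 per Mb (2.58 to 3.13) on chromosome 2, against 1.66 per Mb (1.54 to 1.78) on the other macrochromosomes, a ratio of 1.72 (1.52 to 1.93). Shared SMC2 peaks had a density of 0.612 per Mb (0.492 to 0.751) there, against 0.639 per Mb (0.568 to 0.717), and the interval of their ratio of 0.957 (0.747 to 1.21) held 1. Shared CAP-H peaks stood at 0.618 against 0.589 per Mb, a ratio of 1.05 (0.819 to 1.34). Unshared CAP-H peaks stood at 1.26 against 1.34 per Mb, a ratio of 0.940 (0.794 to 1.11). Among these classes, unshared SMC2 peaks were the one whose interval did not hold 1.

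**Figure D1:**
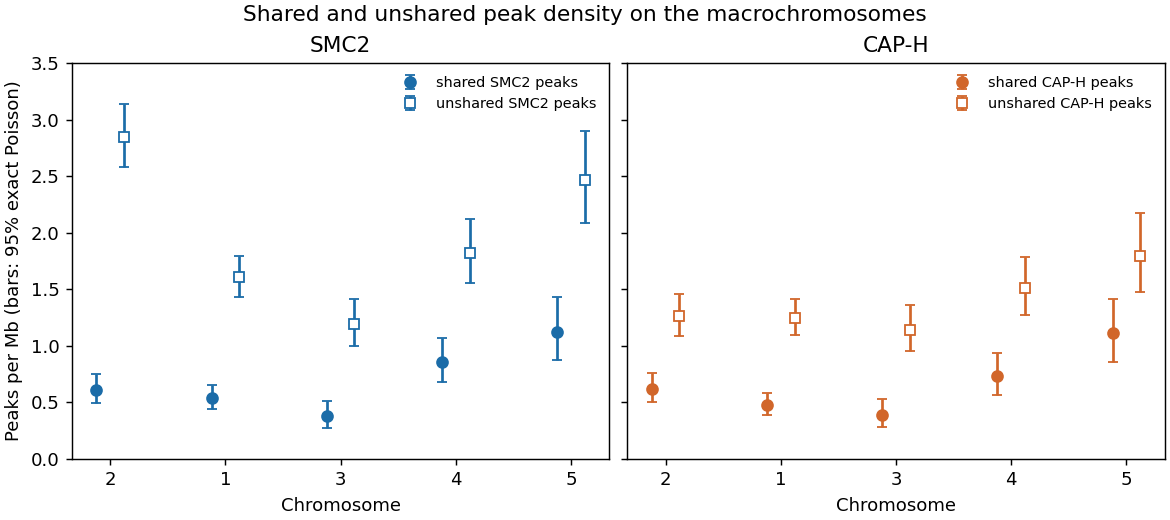
Peaks per Mb on chromosome 2 and on chromosomes 1, 3, 4 and 5, with SMC2 in the left panel and CAP-H in the right. Filled circles are shared and open squares unshared peaks, and bars are 95% exact Poisson intervals; unshared SMC2 peaks on chromosome 2 stand at 2.85 per Mb, while its shared SMC2 peaks stand at 0.612 per Mb, between chromosomes 1 and 4.

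Among these 5 chromosomes, chromosome 2 had the highest density of unshared SMC2 peaks. Chromosome 5 followed at 2.47 per Mb (2.08 to 2.90), an interval that overlapped that of chromosome 2. Chromosomes 4, 1 and 3 had 1.82, 1.60 and 1.20 per Mb, each with an interval wholly below that of chromosome 2. For shared SMC2 peaks the order was different: chromosome 5 had 1.12 per Mb, chromosome 4 had 0.856, chromosome 2 had 0.612, chromosome 1 had 0.538 and chromosome 3 had 0.380. In that order the interval of chromosome 5 alone did not overlap the interval of chromosome 2.

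Chromosome 2 had an SMC2 to CAP-H peak ratio of 1.84 (1.59 to 2.14), against 1.19 (1.09 to 1.30) on the other macrochromosomes, a relative ratio of 1.55 (log-normal interval 1.30 to 1.83). With shared peaks left out of both lists the relative ratio was 1.83 (1.49 to 2.23). SMC2 peaks with a high value of the authors' score gave a smaller ratio. With SMC2 peaks of a score of at least 100 alone, the relative ratio was 1.16 (0.872 to 1.53), an interval that held 1.

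The score is the authors' own value for each SMC2 peak, and what it measures is not stated in the file. It ran from 50.02 to 472.91 on chromosome 2, with a median of 66.0 and quartiles of 55.9 and 85.9. On the other macrochromosomes the median was 68.4 and the quartiles were 57.2 and 94.0, with single peaks up to 3100. Scores of at least 100 were held by 85 of 515 peaks on chromosome 2, or 16.5% (13.402 to 19.998), against 22.1% (19.6 to 24.7) elsewhere among the macrochromosomes. High scores were a smaller share of the list on chromosome 2, although these intervals overlapped slightly. On the single other macrochromosomes the share ran from 19.5% (13.9 to 26.2) on chromosome 3 to 24.3% (18.7 to 30.6) on chromosome 5.

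Split by score, the excess of SMC2 peaks on chromosome 2 was found below 100. From 50 to 60 the density was 1.28 per Mb, against 0.795 on the other macrochromosomes, a ratio of 1.61 (1.34 to 1.92). From 60 to 75 the ratio was 1.66 (1.34 to 2.05), and from 75 to 100 it was 1.57 (1.22 to 2.00). From 100 to 150 it was 1.26 (0.871 to 1.79). At 150 or more, chromosome 2 had 0.262 peaks per Mb and the other macrochromosomes 0.261, a ratio of 1.00 (0.680 to 1.45). Unshared peaks had ratios between 1.48 and 1.86 in all 5 score groups, although in the top 2 groups, of 32 and 16 peaks on chromosome 2, the intervals held 1.

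**Figure D2:**
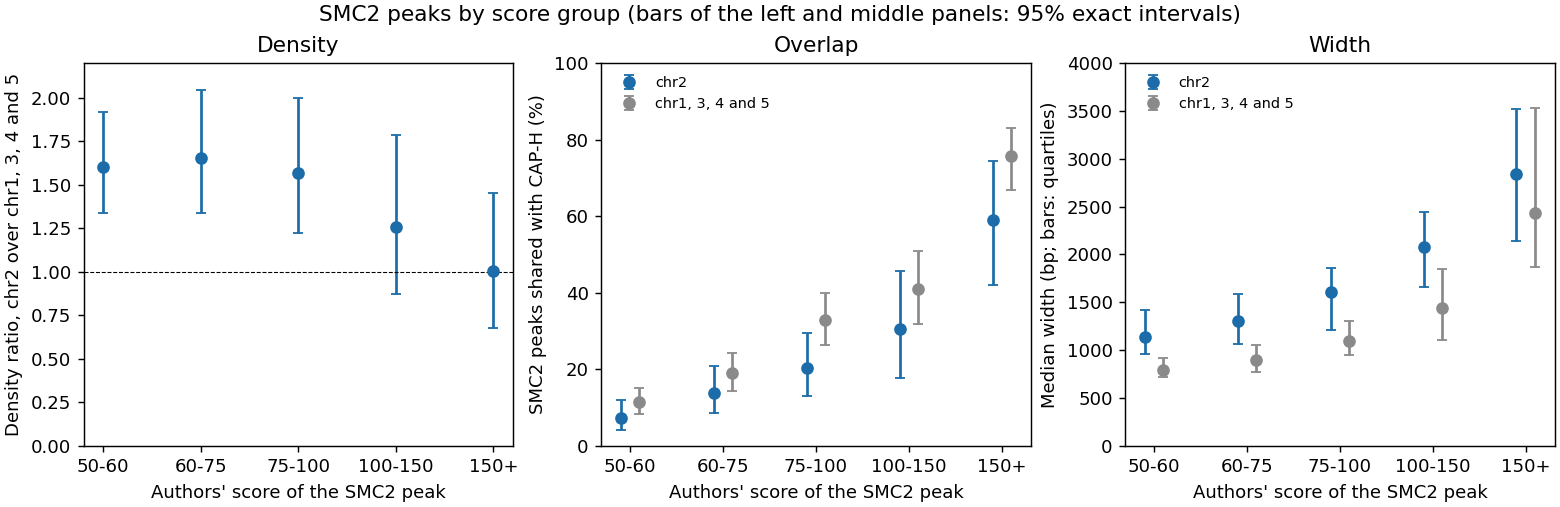
SMC2 peaks in 5 groups of the authors' score on chromosome 2 and on chromosomes 1, 3, 4 and 5. The left panel plots the ratio of densities, the middle panel the percentage of peaks shared with CAP-H, both with 95% exact intervals, and the right panel the median width in bp with quartiles; the density ratio is 1.61 in the lowest group and 1.00 in the highest, while the shared percentage of chromosome 2 is the lower of the pair in every group.

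The next question was how far the SMC2 and CAP-H lists coincided on chromosome 2. Of the 515 SMC2 peaks, 91 were shared, or 17.7% (95% exact binomial interval 14.5 to 21.2), against 31.0% of the whole SMC2 list and 27.8% (25.1 to 30.6) of SMC2 peaks on the other macrochromosomes. Of the 280 CAP-H peaks, 92 were shared, or 32.9% (27.4 to 38.7), against 42.4% of the whole CAP-H list and 30.5% (27.4 to 33.6) on the other macrochromosomes. Both shares were below those of the whole lists. Against the other macrochromosomes the SMC2 share alone was lower, while the CAP-H intervals overlapped.

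Shared SMC2 peaks had higher scores than unshared ones on chromosome 2. The median score was 90.9 (quartiles 67.6 and 151) for the 91 shared peaks and 63.6 (55.045 and 79.4) for the 424 unshared peaks. The share was higher in each higher score group: 7.37% (4.09 to 12.1) of peaks scoring 50 to 60, 13.9% and 20.4% in the following groups, 30.4% at 100 to 150 and 59.0% (42.1 to 74.4) at 150 or more. In each of these groups the share was lower on chromosome 2 than on the other macrochromosomes, where the values were 11.3%, 19.0%, 32.8%, 41.1% and 75.6% (66.9 to 83.0). In each group, however, the intervals of the shares overlapped. At scores of at least 200, 12 of 22 peaks on chromosome 2 were shared, or 54.5% (32.2 to 75.6), against 62 of 77, or 80.5% (69.9 to 88.7), on the other macrochromosomes.

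The 10 SMC2 peaks with the highest scores lay between 538038 and 139320761, and 5 of them were shared. Those at 79131051, 80771424 and 81742217 lay close together, and none lay between 14438395 and 61815591. The highest score, 472.91, was that of a peak from 80771424 to 80777913, which enclosed a CAP-H peak from 80771614 to 80774329. A score of 394.7 marked the peak from 61815591 to 61820543, which lay wholly inside the widest CAP-H peak of the chromosome. The other shared ones were the peaks from 90228297 to 90231783 with a score of 288.97, from 139317564 to 139320761 with 285.68, and from 109952150 to 109953407 with 260.49.

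The other 5 of these peaks had no CAP-H partner and had the highest scores among unshared SMC2 peaks of the chromosome. The peak from 14433824 to 14438395 had a score of 398.66 and was 4572 bp wide, and the nearest CAP-H peak was 143 kb away. The peak from 79131051 to 79134090 had a score of 294.06, with the nearest CAP-H peak 612 kb away. The peak from 81742217 to 81745820 had a score of 283.45 and stood 968 kb from any CAP-H peak. The distances of the peaks at 79131051 and 81742217 were above the upper quartile of unshared SMC2 peaks on chromosome 2, 285 kb. That of the peak at 14433824 was between the quartiles, near the median of 115 kb. The peak from 538038 to 539945 had a score of 283.36 and was 17.4 kb from a CAP-H peak, and the peak from 120405179 to 120410497 had a score of 253.48 and was 72.6 kb from one.

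Most overlapping pairs overlapped over most of the narrower peak. Pairs were picked by their overlap, which by itself keeps their centres near each other. The shared peaks formed 94 overlapping pairs, with a median overlap of 1540 bp (quartiles 1154 and 2050, range 101 to 5852). The median overlap was 100% of the narrower peak. In 36 pairs the SMC2 peak lay wholly inside the CAP-H peak, in 13 the CAP-H peak lay wholly inside the SMC2 peak, and 45 overlapped in part. The centres were a median of 260 bp apart (quartiles 126 and 623), and 65 of the 94 pairs had centres within 500 bp. The CAP-H peak was the wider in 61 pairs, with a median width ratio of CAP-H over SMC2 of 1.15 (quartiles 0.870 and 1.53). The widths of paired peaks had a Spearman rho of 0.56 over the 94 pairs, given as a description, since the pairs share both libraries.

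Single peaks of 1 list spanned 2 of the other at 5 places. The SMC2 peaks from 13974821 to 13976405, from 107694007 to 107696084 and from 139317564 to 139320761 each overlapped 2 CAP-H peaks. The CAP-H peak from 61814450 to 61823734 overlapped 2 SMC2 peaks, of which 1 was the peak with a score of 394.7. The CAP-H peak from 62007520 to 62015175 also overlapped 2, one of them by only 101 bp, the smallest overlap on the chromosome.

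Most unshared peaks lay more than 10 kb from the other list. Both lists are sparse: gaps between neighbouring peaks had a median of 245 kb for CAP-H and 116 kb for SMC2. Whether the distances below differ from those of randomly placed peaks was not tested. The 424 unshared SMC2 peaks lay a median of 115 kb from the nearest CAP-H peak (quartiles 37.6 and 285 kb), and only 35 of them, or 8.25%, lay within 10 kb of one. The 188 unshared CAP-H peaks lay a median of 53.2 kb from the nearest SMC2 peak (quartiles 15.97 and 160 kb), with 35, or 18.6%, within 10 kb. Within 1 kb of the other list lay 8 unshared SMC2 and 13 unshared CAP-H peaks, and beyond 1 Mb lay 12 and 5. The CAP-H list has no score, so its unshared peaks were ranked by width. The widest were those from 125884416 to 125889148, with an SMC2 peak 16.1 kb away, and from 19879045 to 19883375, with the nearest SMC2 peak 881 kb away. They were followed by the peaks from 34918523 to 34922440, from 61771845 to 61775713 and from 29382771 to 29386291. The peak at 61771845 had an SMC2 peak 5.19 kb away and lay inside the SMC2 cluster from 61729709 described below.

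Peaks of both lists were wider on chromosome 2. The median width of SMC2 peaks was 1359 bp (95% order-statistic interval 1279 to 1434, quartiles 1087 and 1810.5) on chromosome 2, against 973 bp (950 to 1001) on the other macrochromosomes. That of CAP-H peaks was 1748.5 bp (1596 to 1882, quartiles 1302 and 2514), against 1319 bp (1246 to 1376). Narrow peaks were scarce: 91 SMC2 peaks, or 17.7%, were under 1000 bp wide, against 52.5% on the other macrochromosomes. For CAP-H these shares were 13.2% and 29.2%. The widest SMC2 peak of chromosome 2 measured 7069 bp, against 40356 bp on the other macrochromosomes, and the widest CAP-H peak 9285 bp, against 30276 bp. Peaks of 5 kb or wider were 6 of 515 SMC2 and 7 of 280 CAP-H peaks there. On the other macrochromosomes they were 20 of 1047 and 25 of 880.

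**Figure D3:**
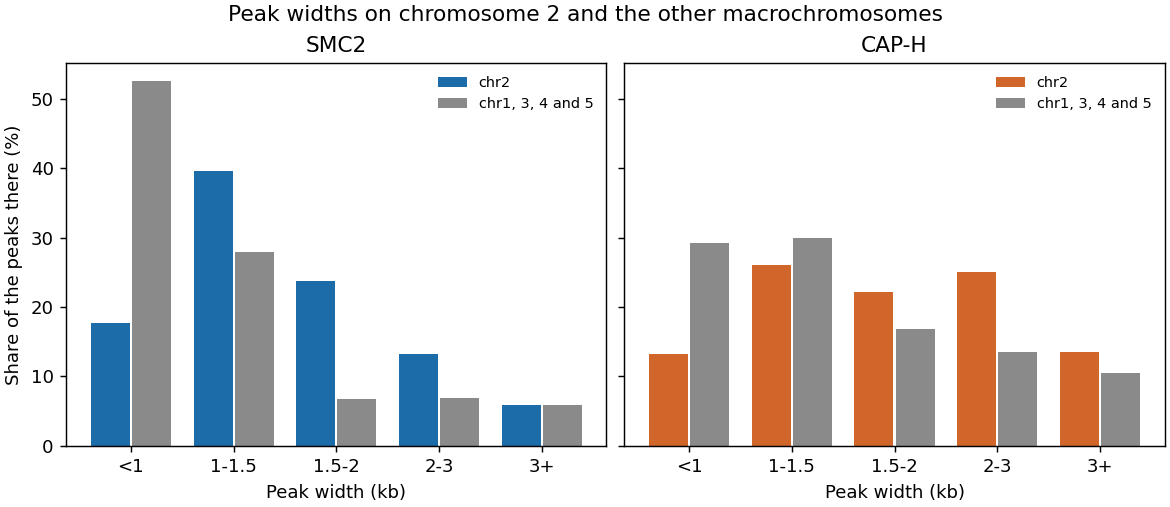
Share of peaks in 5 groups of width, in kb, for SMC2 in the left panel and CAP-H in the right. Coloured bars are chromosome 2 and grey bars chromosomes 1, 3, 4 and 5; under 1 kb lie 17.7% of SMC2 peaks on chromosome 2, against 52.5% on the others, and 13.2% of CAP-H peaks, against 29.2%.

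SMC2 peaks were also wider on chromosome 2 within groups of like score. From 50 to 60 the median was 1139.5 bp, against 792 bp for the other macrochromosomes. From 60 to 75 it was 1301 bp, against 898 bp, from 75 to 100 it was 1602 bp, against 1092 bp, and from 100 to 150 it was 2081 bp, against 1441 bp. These ratios lay between 1.44 and 1.47. At 150 or more the medians were 2837 bp and 2438 bp, a ratio of 1.16, with overlapping intervals of 2274 to 3341 and 2227 to 2804. In the 4 lower groups the intervals of the medians did not overlap. Within chromosome 2, score and width had a Spearman rho of 0.55 over the 515 SMC2 peaks, a description only, as both come from the same reads.

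Shared peaks were wider than unshared peaks in both lists, and both classes were wider on chromosome 2. Shared SMC2 peaks had median widths of 1780 bp there, against 1269 bp elsewhere among the macrochromosomes, and unshared SMC2 peaks of 1263 bp, against 896.5 bp. For CAP-H the shared medians were 2013 bp (1865 to 2282), against 1720 bp (1580 to 1934), and the unshared medians were 1546 bp, against 1173.5 bp. The intervals overlapped for shared CAP-H peaks alone among these classes. Along the chromosome, cut into 15 segments of 10 Mb (the last 8.79 Mb long), the SMC2 median of every segment was above the upper bound of the other macrochromosomes, 1001 bp. The CAP-H median was above their upper bound of 1376 bp in 13 segments. It was 1334 bp from 50000001 to 60000000 and 1328 bp in the last segment, inside their interval. Over the segments the median ran from 1092 to 1559 bp for SMC2 and from 1328 to 2302 bp for CAP-H. Both bounds are those of the pooled median. Chromosomes 1 and 5 alone were also above the SMC2 bound, at 1004.5 and 1003 bp. Chromosomes 4 and 5 alone were also above the CAP-H bound, at 1393.5 bp (1298 to 1513) and 1400 bp (1253 to 1567).

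In groups of like width, a smaller share of SMC2 peaks was shared on chromosome 2, by more than the counting intervals below 2000 bp. These groups were not matched for score, and in the groups of like score above the intervals of the shares overlapped. Of SMC2 peaks 1000 to 1500 bp wide, 10.8% (6.88 to 15.9) had a CAP-H partner there, against 35.5% (30.02 to 41.3) on the other macrochromosomes. Under 1000 bp the shares were 3.30% (0.685 to 9.33) and 13.3% (10.6 to 16.4), and from 1500 to 2000 bp they were 23.0% (15.8 to 31.4) and 56.3% (44.05 to 68.1). The intervals overlapped from 2000 to 3000 bp, at 35.3% (24.1 to 47.8) and 52.8% (40.7 to 64.7), and from 3000 bp, at 46.7% (28.3 to 65.7) and 59.0% (45.7 to 71.5). For CAP-H peaks the shares were 30.1% against 28.4% from 1000 to 1500 bp and 37.1% against 31.1% from 1500 to 2000 bp. They were 35.7% against 41.2% from 2000 to 3000 bp and 57.9% against 68.5% from 3000 bp. The intervals overlapped in these 4 groups, and the direction differed between them. Of the 37 CAP-H peaks under 1000 bp on chromosome 2 none was shared, which allows a share of up to 8.11% by the limit of 3 counts and 9.49% by the exact binomial interval, against 13.6% (9.67 to 18.4) on the other macrochromosomes.

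The 10 widest SMC2 peaks included 5 shared ones, against 17.7% of all SMC2 peaks of chromosome 2 and 46.7% of those 3000 bp or wider. The widest, of 7069 bp from 52735970 to 52743038, had a score of 190.6 and enclosed a CAP-H peak of 5463 bp. It was followed by the peak of highest score at 80771424, of 6490 bp, and by the peaks from 61846461 to 61852428 and from 53788364 to 53794101, both shared. Wide peaks with no partner were those from 49713033 to 49718533, with a score of only 80.71, and from 120405179 to 120410497. The others of the 10 were the shared peak at 61815591 and the unshared peaks from 148504713 to 148509424, at 14433824 and from 59626007 to 59630151.

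Of the 10 widest CAP-H peaks, 9 were shared, against 32.9% of all CAP-H peaks of chromosome 2 and 57.9% of those 3000 bp or wider. The widest, of 9285 bp from 61814450 to 61823734, and those from 62007520 to 62015175 and from 61845853 to 61852312 lay close together. The third widest, of 6821 bp, reached from 100483550 to 100490370 and had an SMC2 partner of 2403 bp. Those from 10371781 to 10377961, from 52737547 to 52743009 and from 4033571 to 4038912 were all above 5 kb. The peaks from 41844932 to 41849732 and from 32325007 to 32329693 were shared too, and the unshared peak from 125884416 to 125889148 was the exception.

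Along the chromosome, the first 1 Mb held more peaks of each list than any other window. It had 39 SMC2 peaks, against 3.22 per Mb (2.94 to 3.52) over the rest of chromosome 2, and 11 CAP-H peaks, against 1.82 per Mb (1.61 to 2.05). There, 2 of 39 SMC2 peaks were shared, or 5.13% (0.627 to 17.3), against 18.7% (15.3 to 22.5) over the rest. Of the 11 CAP-H peaks, 2 were shared, or 18.2% (2.28 to 51.8), against 33.5% (27.8 to 39.4). The intervals overlapped in both lists. At 1 shared site an SMC2 peak from 471754 to 473791 enclosed a CAP-H peak from 471885 to 473205. At the other an SMC2 peak from 867546 to 869300 overlapped a CAP-H peak from 867697 to 869589 by 1604 bp.

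The peaks of the first 1 Mb had scores much like those of the rest. The median score in the first 1 Mb was 66.7, close to the 65.9 of the rest, and the median SMC2 width was 1272 bp, against 1381 bp. The highest score there was 283.36. The SMC2 list began at 6799, with a peak to 8714 and a score of 72.51, and 15 SMC2 peaks preceded position 300000. The CAP-H list began at 270993, with a peak to 271926. The window from 400001 to 500000 had 8 SMC2 peaks and 1 CAP-H peak, and no peak of either list lay between 600001 and 700000.

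The first 1 Mb was also rich on some other macrochromosomes. It held 36 SMC2 and 12 CAP-H peaks on chromosome 5, 15 and 11 on chromosome 1, 10 and 7 on chromosome 4, and 4 and 0 on chromosome 3. The interval of the count on chromosome 2 (27.7 to 53.3) overlapped that of chromosome 5 (25.2 to 49.8). On chromosome 5, 7 of the 36 SMC2 peaks were shared, or 19.4% (8.19 to 36.0), against 31.3% of all its SMC2 peaks. On chromosome 1 the share was higher, at 5 of 15 or 33.3% (11.8 to 61.6), against 25.1%. On chromosome 4, 3 of 10 were shared, against 31.95%, and on chromosome 3, 0 of 4, against 24.1%. CAP-H shares of the first 1 Mb were above those of the whole chromosome on chromosomes 5, 1 and 4. They were 66.7% (34.9 to 90.1), 45.5% (16.7 to 76.6) and 42.9% (9.90 to 81.6), against 38.15%, 27.7% and 32.7%. All these intervals overlapped those of the whole chromosomes. The last 1 Mb of chromosome 2, up to the highest listed coordinate, had 4 SMC2 and 4 CAP-H peaks, none shared. By the exact binomial interval this allows a share of up to 60.2% in each list. With the first 1 Mb of each chromosome left out, a setting chosen after the counts were seen, chromosome 2 had 1.77 SMC2 peaks per CAP-H peak, and its relative ratio to the other macrochromosomes was 1.53 (1.29 to 1.83).

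**Figure D4:**
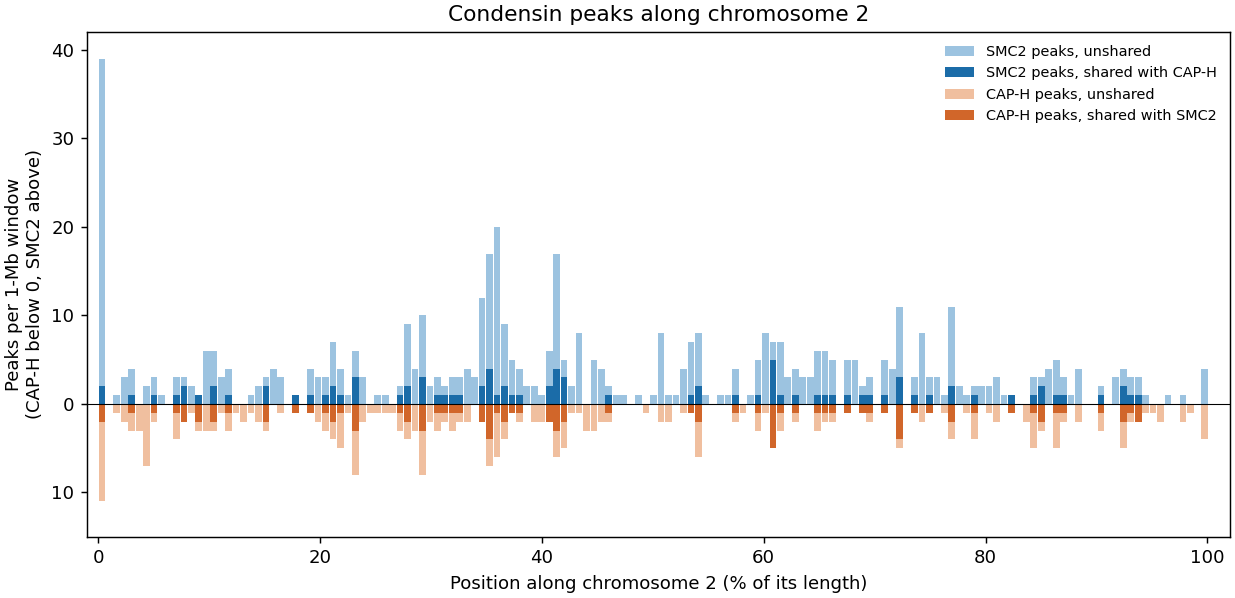
Peaks per 1-Mb window along chromosome 2, from its first base at 0% to the highest listed coordinate at 100%, with SMC2 upward and CAP-H downward. Dark bars are shared and pale bars unshared peaks; the first window has 39 SMC2 and 11 CAP-H peaks, and a group of windows between 30% and 40% of the length has up to 20 SMC2 peaks.

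Beyond the first window, the richest SMC2 windows formed a block of 3 and a single window. The window from 53000001 to 54000000 had 20 SMC2 and 6 CAP-H peaks, of which 1 of each was shared. The adjoining window from 52000001 had 17 SMC2 and 7 CAP-H peaks with 4 of each shared, and that from 51000001 had 12 and 2 with 2 of each shared. Over these 3 Mb there were 16.3 peaks per Mb for SMC2 (12.1 to 21.6) and 5 per Mb for CAP-H (2.80 to 8.25). The single window, from 61000001 to 62000000, had 17 SMC2 and 6 CAP-H peaks.

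The richest CAP-H windows were partly different. After the first 1 Mb came the windows from 34000001 and from 43000001, with 8 CAP-H peaks each beside 6 and 10 SMC2 peaks, and 3 CAP-H peaks shared in each. The window from 52000001 had 7 CAP-H peaks and was also among the 5 richest of SMC2. The window from 6000001 had 7 CAP-H peaks and 2 SMC2 peaks, with none shared. CAP-H peaks thus outnumbered SMC2 peaks there.

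In segments of 10 Mb, the SMC2 density ran from 0.797 to 7.5 per Mb and the CAP-H density from 0.700 to 3.20 per Mb. The segment from 50000001 to 60000000 had the most SMC2 peaks, 75 (5.90 to 9.40 per Mb), beside 26 CAP-H peaks. The most CAP-H peaks, 32, lay in the segment from 40000001 to 50000000, beside 42 SMC2 peaks. The segment from 70000001 to 80000000 had 24 SMC2 and 7 CAP-H peaks, with 1 of each shared. In the last 8.79 Mb, from 140000001, there were 7 SMC2 and 11 CAP-H peaks, none of them shared. These counts allow a share of up to 42.9% and 27.3% by the limit of 3 counts, and 40.96% and 28.5% by the exact binomial interval. Over all of chromosome 2 the shares were 17.7% (14.5 to 21.2) for SMC2 and 32.9% (27.4 to 38.7) for CAP-H, and the exact intervals overlapped in both lists.

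The balance of the lists varied along the chromosome. SMC2 peaks were more numerous than CAP-H peaks in 13 of the 15 segments. The highest ratios of SMC2 to CAP-H peaks were 3.45 (1.73 to 7.49) from 100000001 to 110000000, 3.43 (1.43 to 9.42) from 70000001 and 2.88 (1.82 to 4.70) from 50000001. The exceptions were the segment from 30000001 to 40000000, at 0.963 (0.540 to 1.71), and the last segment, at 0.636 (0.209 to 1.80). Of all CAP-H peaks of chromosome 2, 32.9% (27.4 to 38.7) were shared. From 100000001 to 110000000, 9 of 11 were, or 81.8% (48.2 to 97.7). That segment held only 2 unshared CAP-H peaks. Its 0.9 shared CAP-H peaks per Mb were below the 1.1 from 50000001 to 60000000. From 1 to 10000000, 4 of 29 were shared, or 13.8% (3.89 to 31.7), an interval that overlapped that of the whole chromosome. The other segments ran from 0% in the last to 58.8% from 90000001.

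The density of unshared SMC2 peaks was above the 1.66 per Mb of the other macrochromosomes in 13 of the 15 segments, in 7 of them by the whole interval. It was highest from 50000001 to 60000000, at 6.40 per Mb (4.93 to 8.17), and in the first segment, at 4.90 per Mb (3.63 to 6.48). In that first segment 37 of the 49 unshared SMC2 peaks lay in the first 1 Mb. The other 9 Mb held 12, or 1.33 per Mb (0.689 to 2.33), an interval that held 1.66. Without the first 1 Mb of chromosome 2, but with the other macrochromosomes kept whole, the counts of segments were 12 and 6. For unshared CAP-H peaks the density was above the 1.34 per Mb of the other macrochromosomes in 7 segments. In 2 of them it was above by the whole interval, or in 1 without the first 1 Mb of chromosome 2. From 50000001 to 60000000 it was 1.5 per Mb (0.840 to 2.47). From 1 to 74392544 there were 297 SMC2 and 174 CAP-H peaks, and from 74392545 onwards 218 and 106.

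Over the 149 windows of 1 Mb, SMC2 and CAP-H counts moved together, with a Pearson r of 0.68 and a Spearman rho of 0.58. Without the first window these were 0.62 and 0.57. The windows are neighbours on 1 chromosome and share the same pair of libraries, so the values are a description. Both lists had a peak in 96 windows, SMC2 alone in 26, CAP-H alone in 12 and neither in 15.

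Fewer of the peaks lay in the richest windows than on the other macrochromosomes. The richest 15 of 149 windows held 37.9% of SMC2 and 33.6% of CAP-H peaks of chromosome 2. On the others, the richest 10% of windows held 47.7% to 61.4% of SMC2 and 34.1% to 54.5% of CAP-H peaks. The variance of SMC2 counts per window was 5.75 times their mean, against 4.68 on chromosome 3, 5.82 on chromosome 1 and up to 18.0 on chromosome 4. By this measure chromosome 2 was not the lowest. Without the first window of each chromosome it was 3.53 times, against 4.76 on chromosome 3 to 18.6 on chromosome 4. For CAP-H, with all windows, the variance was 2.00 times the mean, against 3.54 to 9.58.

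Clusters were defined as runs of neighbouring peaks of 1 list separated by at most 50 kb. By this measure 143 of 515 SMC2 peaks on chromosome 2, or 27.8% (23.9 to 31.9), lay in 31 clusters of at least 3 peaks, against 39.3% (36.3 to 42.3) on the other macrochromosomes. For CAP-H, 49 of 280 peaks, or 17.5% (13.2 to 22.5), lay in 14 such clusters, against 35.1% (32.0 to 38.4). Among the single other macrochromosomes the SMC2 share ran from 20.7% on chromosome 3, below chromosome 2, to 51.4% on chromosome 5, and the CAP-H share from 28.3% to 45.1%. Lone peaks made up 266 SMC2 and 167 CAP-H peaks, or 51.7% and 59.6% of the lists. With the first 1 Mb of each chromosome left out, the share of SMC2 peaks in clusters was 22.7%.

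**Figure D5:**
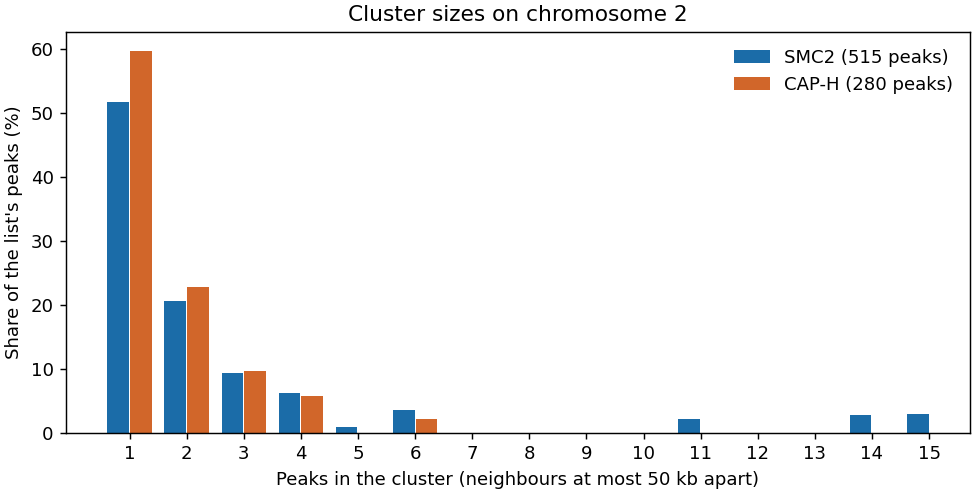
Share of the 515 SMC2 and 280 CAP-H peaks of chromosome 2 by the number of peaks in their cluster, with neighbours at most 50 kb apart. Lone peaks are 51.7% of SMC2 and 59.6% of CAP-H peaks, and clusters of 11, 14 and 15 peaks are found for SMC2 alone.

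The pair of SMC2 clusters with most peaks lay near the first base. From 1 to 600000, a stretch that holds both, 1 of 30 SMC2 peaks was shared, or 3.33% (0.0844 to 17.2). That interval overlapped the one for chromosome 2, 17.7% (14.5 to 21.2). One cluster of the pair had 15 peaks over 189 kb, from 351183 to 539945, of which 1 was shared, with 4 CAP-H peaks inside it. The other had 14 peaks over 196 kb, from 86240 to 282524, none shared, with 2 CAP-H peaks inside it. Its scores ran from 52.63 to 105.34 with a median of 63.6, and those of the cluster of 15 from 50.16 to 283.36 with a median of 68.6.

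The next cluster had a higher median score and more shared peaks. It held 11 SMC2 peaks over 139 kb, from 61729709 to 61869066. Of these, 4 were shared, against 17.7% of all SMC2 peaks of chromosome 2 and 20.4% of those scoring 75 to 100. Among SMC2 peaks 2000 to 3000 bp wide, the group that holds the cluster's median width, 35.3% (24.1 to 47.8) were shared. The peaks at 61815591 and 61820627, 2 of the 4 shared ones, overlapped the same CAP-H peak. No interval was computed for the shares of single clusters, which hold few peaks. The cluster had a median score of 85.0 and a highest of 394.7. Its median width was 2177 bp, against 1190 and 1235 bp in the pair of clusters near the first base. The CAP-H cluster with most peaks lay at the same place, with 6 peaks over 152 kb, from 61700562 to 61852312. It had 3 shared peaks, against 32.9% of all CAP-H peaks of chromosome 2, a median width of 2862 bp and 10 SMC2 peaks inside it.

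The SMC2 clusters of 6 peaks were from 830324 to 913808, from 53481605 to 53565843 and from 53690956 to 53794101. They had 1, 0 and 1 shared peaks. The CAP-H clusters of 4 peaks lay from 471885 to 566311, from 6207283 to 6275200, from 43436055 to 43467331 and from 107694194 to 107727733. The cluster at 6207283 held no SMC2 peak. That at 107694194 had 3 of its 4 peaks shared within 33.5 kb, against 32.9% of all CAP-H peaks of chromosome 2.

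The last question was where chromosome 2 had no peaks. Gaps between neighbouring SMC2 peaks had a median of 116 kb (quartiles 28.7 and 352 kb), and gaps between CAP-H peaks a median of 245 kb (54.3 and 757 kb). For both lists together the median was 83.8 kb. Gaps over 1 Mb numbered 32 for SMC2 and made up 37.3% of the chromosome. On the single other macrochromosomes such SMC2 gaps made up 61.9% to 69.5%. For CAP-H there were 49, or 59.7% of the chromosome, against 57.4% to 74.7%. Stretches over 1 Mb free of both lists numbered 25 and made up 25.04% of chromosome 2, against 40.9% to 52.8% on the single other macrochromosomes.

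The longest stretch without a peak of either list reached over 2.30 Mb, from 131774801 to 134076254. It was followed by 2.10 Mb from 146321520 to 148421002 and 2.01 Mb from 24924082 to 26931612. The stretch of 1.94 Mb from 81745821 to 83686740 began at the edge of the unshared SMC2 peak with a score of 283.45. The fifth was 1.80 Mb long, from 69083655 to 70879251, and was separated by a single SMC2 peak from the sixth, of 1.79 Mb, from 70881392 to 72674196.

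Several stretches were empty in 1 list and not in the other, with peaks placed by their centre. The longest without a CAP-H peak was 5.50 Mb, from 68406608 to 73908835, and held 4 SMC2 peaks. The next, of 4.89 Mb from 80774330 to 85664429, held 8, and that of 3.30 Mb from 93568232 to 96864753 held 10. The stretch at 80774330 began at the end of the CAP-H peak under the SMC2 peak of highest score. That SMC2 peak, though shared, is counted among the 8, because its centre lay inside the stretch. The other CAP-H gaps among the 5 longest were from 142406356 to 145577842, with 2 SMC2 peaks, and from 134984519 to 137496859, with 3.

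The longest stretch without an SMC2 peak was 3.52 Mb, from 140141996 to 143664450, and held 4 CAP-H peaks. It was followed by 3.11 Mb from 17654881 to 20764665 with 6 CAP-H peaks, among them the unshared peak of 4331 bp at 19879045. The stretches from 145378470 to 148421002, from 131770881 to 134253741 and from 122917073 to 125333399 held 3, 2 and 4 CAP-H peaks. The SMC2 list ended with a peak from 148784292 to 148785088, with a score of 55.3, and the CAP-H list with a peak from 148755520 to 148756485.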

How the data were processed

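Each list covers 1 pull-down library. Reads were aligned with BWA to galGal4, per the submitters' processing notes. Peak names in the deposited lists begin with MACS, a peak caller; the sources used here do not give its version, control or threshold. The SMC2 list holds the authors' score for each peak, used to rank, filter and group peaks, although no header says what it measures; CAP-H peaks have none. Some listed starts are 0, so starts were read as counting from 0 and 1 was added. The deposited profiles around transcription start sites have no value per chromosome and were not used.

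Windows and segments were counted from the first base and peaks placed by their centre. A share of 0 also has a limit of 3 counts. Shares have Clopper-Pearson, counts exact Poisson and ratios of counts exact conditional intervals; medians have binomial order-statistic intervals. The scripts ran in Python 3.11.15 with numpy 2.4.6, pandas 2.3.3, scipy 1.17.1 and matplotlib 3.10.9, and were tested on simulated data. Regions named were the 10 SMC2 peaks of highest score, the 10 widest of each list, the 5 richest windows, largest clusters and longest empty stretches (ties in full), first and last peaks, peaks with 2 partners, and the 5 unshared peaks of highest score or width. The sixth stretch free of both lists and the shared sites of the first 1 Mb were chosen after their values were seen. So were the zone from 1 to 600000 and the zones of several Mb. The chromosome and these rules were chosen with earlier results of these data known.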

Additional observations from a re-analysis of the deposited data

How the results depend on the processing

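Of 87 values recomputed under other settings, 45 stayed within the 95% interval of the reported value, or within 1.5 times for counts, and 42 did not. With SMC2 peaks of a score of at least 100, there were 85 SMC2 peaks or 0.571 per Mb, 43.5% of them and 13.2% of CAP-H peaks were shared, the SMC2 median width was 2316 bp and 1.24 times that of the other macrochromosomes, 9.41% of SMC2 peaks lay in clusters, 67.1% of windows had no SMC2 peak and 23.5% no peak, and the SMC2 to CAP-H ratio was 0.304, 1.16 times the other macrochromosomes. The upper 50% by score was cut at 74.5, the median of the whole SMC2 list and not of chromosome 2. With it these values were 190 peaks, 1.28 per Mb, 31.1% and 21.4% shared, 1791.5 bp, 22.1% in clusters, 44.3% and 19.5% of windows, and 0.679 per CAP-H peak. The relative ratio of 1.36 stayed within its interval. CAP-H peaks of at least their list's median width had 1.26 per Mb. An overlap of 50% of both peaks gave 26.8% of CAP-H peaks shared. Shared peaks alone had median widths of 1780 and 2013 bp, with CAP-H 1.17 times the other macrochromosomes, and unshared peaks alone 1263 and 1546 bp. Shares in clusters for SMC2 and CAP-H were 14.6% and 4.29% with gaps of at most 20 kb and 43.1% and 27.5% with 100 kb; merging peaks closer than 1 kb gave 10.9% for CAP-H. Windows of 500 kb lacked SMC2, CAP-H and both in 34.6%, 52.3% and 26.5%, and windows of 2 Mb in 4.0%, 6.67% and 1.33%. The richest window held 8 SMC2 and 4 CAP-H peaks at 100 kb. Without the first 1 Mb, added after the data were seen, the richest held 20 SMC2 peaks and 22.7% of SMC2 peaks lay in clusters. A stricter score leaves fewer peaks by construction; for the relative ratio and the width ratio the cause was not tested. The unknown read depth limits how weak a peak could be listed. No paired analysis was possible because each group has 1 library.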

Other observations

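Sequences that galGal4 assigns to chromosome 2 without a position are not part of the values above. They carried 4 SMC2 and 6 CAP-H peaks.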
